A study of Enchytraeus crypticus with 30 samples.

Results

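Enchytraeus crypticus is a small soil-dwelling oligochaete worm used in ecotoxicology, and nickel reaches it through the soil solution, the skin and the gut. Among 43750 gene probes on the array, 26 were selected as switched on by nickel nitrate (NiNO3). They were chosen by measured values: each had a spot that was not significantly positive on at least 1 of the 30 arrays, was not well above background on any of the 6 control arrays, and was well above background on at least 5 of the 6 arrays of NiNO3 at the EC50. Well above background is a flag of the scanner software for a spot whose signal clearly exceeds that of its surroundings, and a probe with the flag is called detected here. The EC20 and the EC50 are the soil concentrations that lower reproduction by 20% and by 50%, so that the salt and the particles were matched on effect and not on nickel mass.

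The 30 arrays came from 10 conditions with 3 replicates each, and each replicate was an extract of 20 pooled adult worms with a well developed clitellum, the girdle that marks maturity. The worms were kept for 3 or 7 days in soil without added nickel (Control), with NiNO3 at EC20 or EC50, or with nickel nanoparticles (Ni-NPs) at EC20 or EC50. Whole worms were extracted, so that a signal cannot be assigned to a tissue, and fewer cells of a type and less RNA per cell cannot be told apart. The labels do not say that the pools came from separate cultures, and the spread between replicates covers pools and arrays only.

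Nickel enters cells as the divalent ion, partly on routes that carry other metals. Cells hold metal ions on metallothioneins, glutathione and other binding molecules, and respond to damaged proteins and oxidants with chaperones and antioxidant enzymes. Nickel particles dissolve in part, and exposed animals then meet both the ion and the particle. Which of these processes the 26 probes belong to cannot be said here, because the files name each probe only by a sequence of the worm's transcript assembly, with no gene name and no sequence letters. No marker of a tissue or of the metal response could therefore be looked up.

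Of the 26 probes, 18 carry the name of an assembled contig and 8 that of a single sequencing read (names that start with GYUW2K). Contig names made up 69.2% of them, 54.1% of the 11134 probes that met the conditions on the controls and on significance (called control-off probes below), and 53% of all probes. The members lay apart from each other on the array, with at least 4 rows or columns between any pair, over rows 67 to 504 of 532 and columns 2 to 85 of 85. No member spot was saturated and none carried an outlier flag on the 30 arrays.

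All members were dim. Their processed signals, in the intensity units of the scanner, lay between 1.35 and 175 over the 780 member spots. Levels are given below as the log2 of the processed signal after Median normalization, which brings the medians of all arrays to a common value. On this scale the mean level of a member on the 6 controls was between 1.19 and 3.23, with a median of 2.58, against a median of 1.39 for the control-off probes and 3.75 for all probes. The members' median was reached by 2.12% of the control-off probes. The lowest signal detected on a control array was 2.57 to 3.44, so that the median member lay at the lower end of these limits. Off also does not mean without signal: all 26 members were significantly positive on at least 1 control array and 15 on all 6. Spots that were not significantly positive hold a substitute value with no order, and 71 of the 780 member spots, among them 21 of the 156 control spots, were of this kind.

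The arrays differed in how many probes they detected. The number of probes well above background was 22729 to 28259 on the 6 controls, 24654 to 31162 on the 6 NiNO3 EC50 arrays and 19662 to 33391 over all 30. The 3 arrays of slide 8, which are replicate 3 of Control, NiNO3 EC50 and Ni-NPs EC20 at day 3 and the whole of the third scan day, detected 28259, 31162 and 33391 probes, the highest count of each of the 3 treatments.

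**Figure D1:**
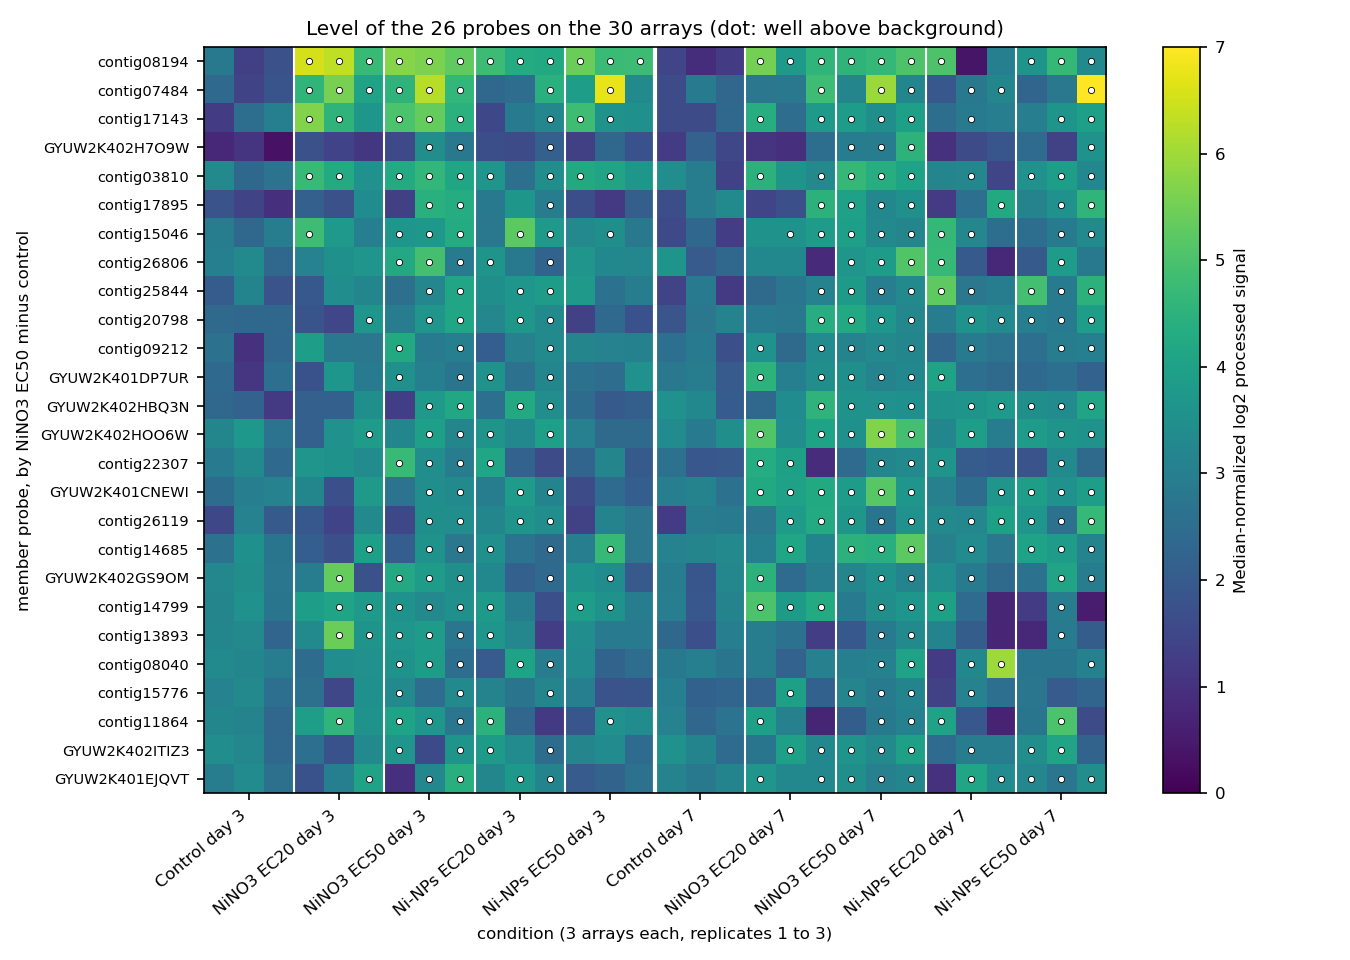
Median-normalized log2 processed signal (colour) of the 26 probes (lines, by the difference between NiNO3 EC50 and control) on the 30 arrays (columns, 3 per condition, day 3 left and day 7 right); a dot marks a spot well above background. The controls carry no dot and the NiNO3 EC50 columns 136 of 156, as the selection requires, and the other treatments lie between, with 59 to 75 of 156.

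On the arrays used for the selection the levels are a description, with no test. NiNO3 EC50 lay above the controls in the mean of all 26 members, by 0.06 to 3.57 on the log2 scale with a median of 0.86. The median was -0.10 over all probes and -0.19 over the control-off probes. The difference exceeded 1 in 11 members, was between 0.5 and 1 in 8 and under 0.5 in 7. The count over 1 was 17 without normalization and 19 with spike-in scaling. The 6 NiNO3 EC50 arrays lay above all 6 controls in 6 members: contig08194, contig07484, contig17143, contig03810, contig15046 and contig09212. For the other 20 the levels of both groups overlapped when the 2 days were pooled, so that no single level separated off from on. Within a day more members were separated. All 3 NiNO3 EC50 arrays lay above the 3 same-day controls in 10 members at day 3 and 15 at day 7. The shares of control-off probes were 2.15% and 3.05%. The limit itself differed: the lowest detected signal was 1.95 to 3.19 on the NiNO3 EC50 arrays and 2.57 to 3.44 on the controls. On slide 8, where 25 of 26 members were higher with NiNO3 EC50, the exception contig08040 was detected at 2.54 there but not at 2.94 in the control. The part of these limits in the membership was not tested.

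All 6 NiNO3 EC50 arrays detected 6 members (contig08194, contig17143, contig03810, contig15046, contig26806 and GYUW2K402GS9OM), and 5 of 6 detected the other 20. Replicate 1 of day 3 missed 10 of these, replicate 2 of day 3 missed 4 and replicate 1 of day 7 missed 6. The members detected on 5 arrays had differences from the controls of 0.06 to 2.56, with a median of 0.82. Just outside the selection, 71 probes were detected on 4 of the 6 arrays, with differences of -0.12 to 2.35 and a median of 0.83. Another 6 probes met every other condition but were significantly positive on all 30 arrays, with differences of 0.03 to 1.64. Neither edge of the selection coincided with a step in the levels.

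The probe with the largest difference was contig08194. On the day 3 controls its levels were 2.82, 1.33 and 1.74, and on the day 7 controls 1.45, 0.92 and 1.23, of which 4 of the 6 spots were not significantly positive. With NiNO3 EC50 the levels were 5.72, 5.63 and 5.29 at day 3 and 4.54, 4.66 and 5.04 at day 7. The highest control, 2.82, lay well below the lowest NiNO3 EC50 array, 4.54. Its mean rose from 1.58 to 5.15, a difference of 3.57 or 11.8-fold in the measured values. No control spot of this probe was detected. The fold is at least 4.2 when each control is set to the lowest signal detected on its array, or to its own signal where that was higher. The limit of a single spot can lie above that signal, and the fold can then be smaller. On Control day 3 replicate 2 the lowest detected signal was 3.28, yet GYUW2K402HOO6W was not detected there at 3.72.

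On the arrays that the selection did not use, contig08194 was detected on 16 of 18, more than any other member. With NiNO3 EC20 its levels were 6.54, 6.33 and 4.71 at day 3 and 5.54, 3.80 and 4.58 at day 7, all 6 above all controls. With Ni-NPs EC50 they were 5.44, 4.78 and 4.81 at day 3 and 3.63, 4.66 and 3.36 at day 7, again all above the controls. With Ni-NPs EC20 they were 4.79, 4.32 and 4.25 at day 3, but 5.05, 0.41 and 3.03 at day 7, where only replicate 1 was detected. The low value of 0.41 was on an array that detected 30134 probes. Its median log2 signal before normalization was 5.97, against 5.42 to 6.62 over all 30 arrays. The source of the low value was not tested.

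In means with SD over 3 arrays, contig08194 stood at day 3 at 1.96 ± 0.77 in the controls, 5.86 ± 1.0 with NiNO3 EC20, 5.55 ± 0.23 with NiNO3 EC50, 4.45 ± 0.29 with Ni-NPs EC20 and 5.01 ± 0.37 with Ni-NPs EC50. At day 7 the same conditions gave 1.20 ± 0.27, 4.64 ± 0.87, 4.75 ± 0.26, 2.83 ± 2.33 and 3.88 ± 0.68. NiNO3 at EC20 and EC50 differed by less than the SD of EC20 at both days. With the same-day controls set in this way to the lowest detected signals, the folds were at least 7.52, 6.05, 2.83 and 4.17 at day 3 in the same order. At day 7 they were at least 2.7, 2.92 and 1.6 without Ni-NPs EC20, for which no fold can be given.

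**Figure D2:**
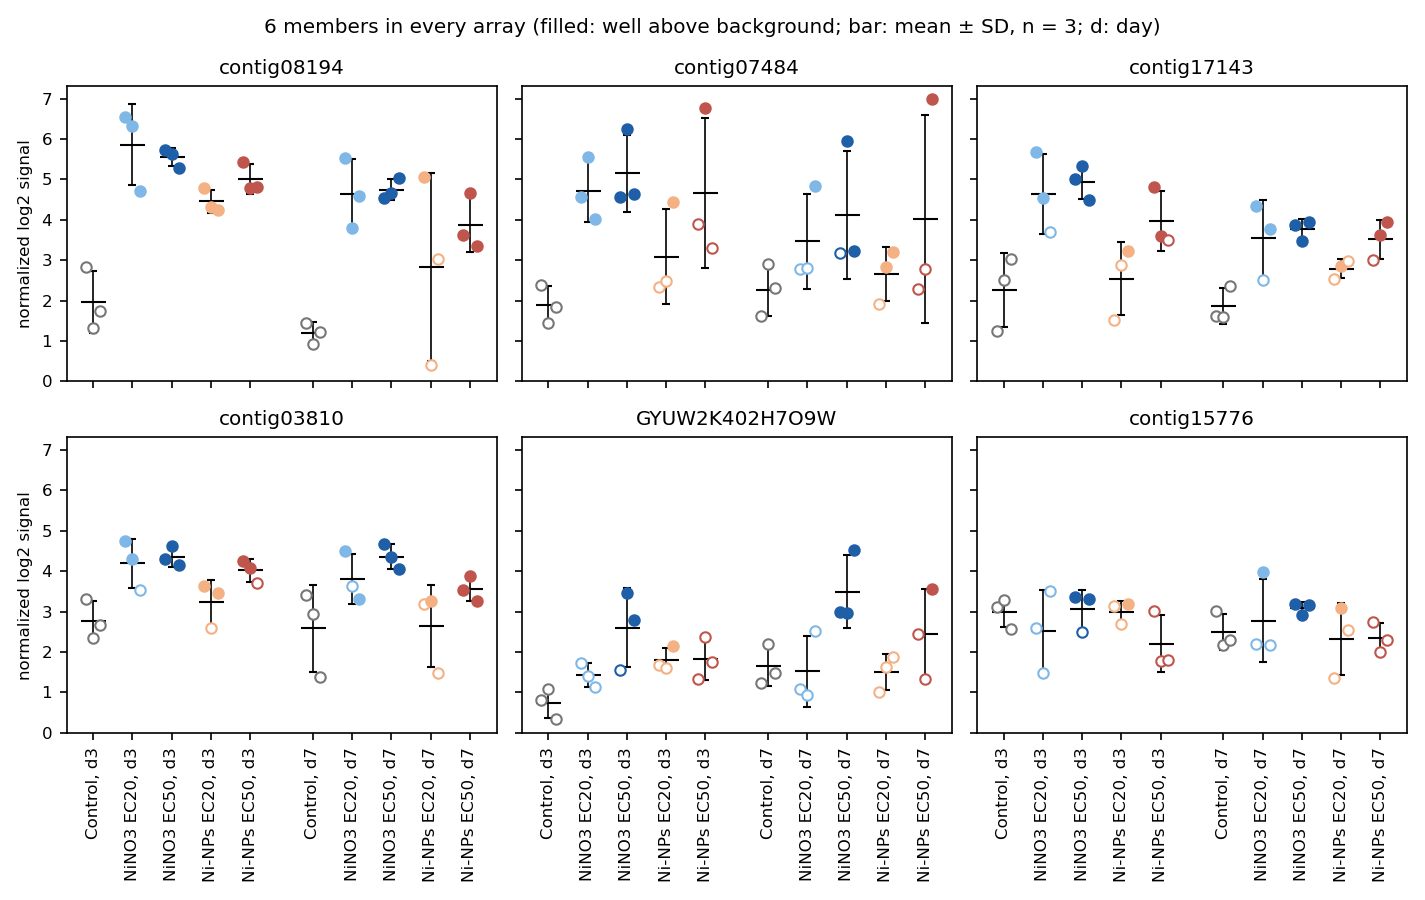
Levels (Median-normalized log2 processed signal) of 6 members in every array, by condition and day; points are arrays, filled where well above background, and bars are the mean ± SD of 3 arrays. Shown are the 5 members with the largest difference between NiNO3 EC50 and control, and contig15776; GYUW2K402H7O9W and contig15776 were detected on 2 and 3 of the 18 arrays not used for the selection.

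The second largest difference was that of contig07484. Its control levels were 2.38, 1.44 and 1.83 at day 3 and 1.61, 2.90 and 2.31 at day 7, and its NiNO3 EC50 levels 4.56, 6.25 and 4.64 at day 3 and 3.18, 5.96 and 3.22 at day 7. The groups did not overlap and differed by 2.56, but replicate 2 stood above the other NiNO3 EC50 arrays at both days. Ni-NPs EC50 showed a wider scatter, with 3.89, 6.77 and 3.31 at day 3 and 2.29, 2.79 and 6.98 at day 7. The last of these is the highest member signal of all, 175 units, in a condition where the other arrays did not detect the probe.

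NiNO3 EC20 gave 4.57, 5.56 and 4.03 for contig07484 at day 3 and 2.78, 2.80 and 4.83 at day 7. Ni-NPs EC20 gave 2.33, 2.49 and 4.45 at day 3 and 1.91, 2.84 and 3.21 at day 7. Its SD within a condition was the largest among the members, 1.34 when pooled over the 10 conditions, and its high levels came from single arrays in most conditions.

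For contig17143 the control levels were 1.25, 2.52 and 3.03 at day 3 and 1.62, 1.60 and 2.37 at day 7. NiNO3 EC50 gave 5.02, 5.34 and 4.48 at day 3 and 3.87, 3.48 and 3.95 at day 7, a difference of 2.29 over both days. NiNO3 EC20 gave 5.67, 4.55 and 3.70 at day 3 and 4.35, 2.50 and 3.78 at day 7. Both salt concentrations were thus higher at day 3 than at day 7 in their means, by 1.18 for EC50 on the log2 scale, and contig08194 and contig07484 shared this order at EC50 with 0.80 and 1.03.

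Ni-NPs EC50 gave 4.82, 3.59 and 3.50 for contig17143 at day 3 and 3.00, 3.62 and 3.95 at day 7, and all 3 arrays lay above the same-day controls at each day. Ni-NPs EC20 gave 1.53, 2.87 and 3.23 at day 3, which overlapped the controls, and 2.53, 2.86 and 2.99 at day 7, all above the same-day controls. The probe was detected on 4 of 6 arrays with Ni-NPs EC50 and 2 of 6 with Ni-NPs EC20.

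A smaller and more even difference was that of contig03810. Its controls were 3.30, 2.34 and 2.67 at day 3 and 3.42, 2.94 and 1.38 at day 7, and its NiNO3 EC50 arrays 4.29, 4.63 and 4.15 at day 3 and 4.67, 4.35 and 4.05 at day 7. The 6 treated arrays stayed between 4.05 and 4.67 and above all controls, with a difference of 1.68. Of the 18 other arrays 12 detected it: 4 of 6 with NiNO3 EC20, 3 of 6 with Ni-NPs EC20 and 5 of 6 with Ni-NPs EC50. With Ni-NPs EC50 its levels were 4.26, 4.08 and 3.71 at day 3 and 3.54, 3.89 and 3.27 at day 7, the last of which is below the highest control.

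Opposite to these was GYUW2K402H7O9W, which had the difference next below contig17143, 1.86, but was detected on only 2 of the 18 other arrays, the fewest of any member. Its controls were 0.80, 1.09 and 0.33 at day 3 and 1.24, 2.20 and 1.49 at day 7, the lowest mean control level among the members. NiNO3 EC50 gave 1.54, 3.47 and 2.80 at day 3 and 2.98, 2.96 and 4.53 at day 7. NiNO3 EC20 exceeded 1.73 on a single array, which had 2.53 at day 7. The means over 6 arrays were 1.47 with NiNO3 EC20, 1.65 with Ni-NPs EC20, 2.13 with Ni-NPs EC50 and 3.05 with NiNO3 EC50. The probe was significantly positive on 18 of the 30 arrays and on 2 of the 6 controls. With NiNO3 EC20 it was so on 0 of 3 arrays at day 3 and 1 of 3 at day 7. These means, apart from that of NiNO3 EC50, and the difference of 1.86 thus rest in part on substitute values. Over both days no fold bound can be given, because its NiNO3 EC50 mean was itself below the mean of the lowest signals detected on the controls. At day 7 alone the fold was at least 1.22 with the controls set to these signals.

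The other members of the 10 with the largest differences were contig17895 (1.47), contig15046 (1.46), contig26806 (1.33), contig25844 (1.27) and contig20798 (1.18). Of these, contig15046 was nearly level over 3 treatments, with means of 3.77 with NiNO3 EC20, 3.70 with NiNO3 EC50 and 3.70 with Ni-NPs EC20, and 3.06 with Ni-NPs EC50 against 2.24 in the controls. In contig25844 both particle treatments, with means of 3.67 and 3.62, stood above NiNO3 EC50 at 3.35 and NiNO3 EC20 at 2.81. In contig26806 the other 3 treatments stayed between 2.69 and 3.14 against 2.78 in the controls, and NiNO3 EC20 was detected on none of 6 arrays. In contig17895 the NiNO3 EC50 levels ranged from 1.32 to 4.45 and overlapped the controls, which ranged from 0.97 to 3.31.

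At the lower end, contig13893, contig15776, contig08040, contig11864, GYUW2K402ITIZ3, GYUW2K401EJQVT and contig14799 differed between NiNO3 EC50 and the controls by under 0.5. Those of GYUW2K401EJQVT were 0.97 to 4.42 with NiNO3 EC50 and 2.59 to 3.37 in the controls. For contig15776, which was detected on 3 of the 18 other arrays, they were 2.50 to 3.35 and 2.18 to 3.29. In these members the 2 groups had nearly the same levels, and their membership rests on the flag.

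**Figure D3:**
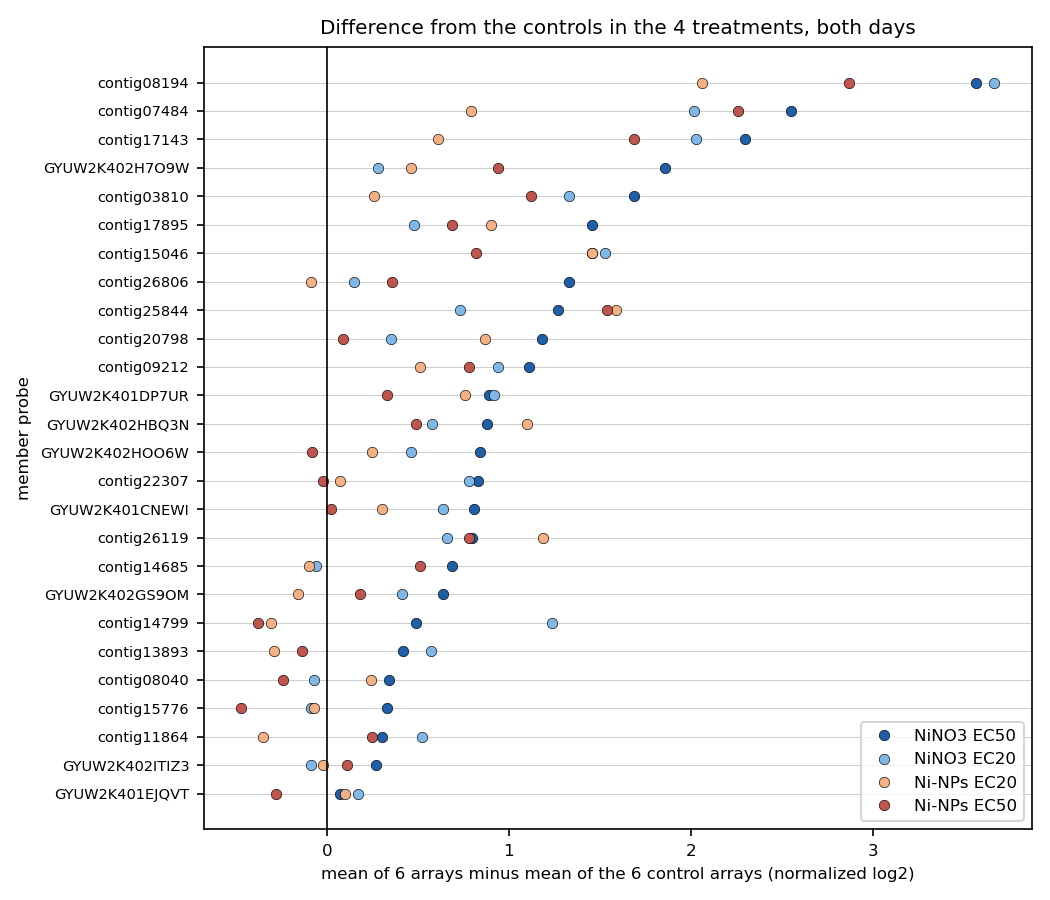
Mean of the 6 arrays of each treatment minus the mean of the 6 control arrays (horizontal axis, normalized log2) for the 26 members, ordered by NiNO3 EC50; the 4 treatments share the same controls. NiNO3 EC50 is above 0 in all 26, which the selection favours; NiNO3 EC20 is above 0 in 22, Ni-NPs EC50 in 19 and Ni-NPs EC20 in 18. At day 3, 80.6% of the control-off probes lay above the mean of the same-day controls with NiNO3 EC20 and 71.5% with Ni-NPs EC50.

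Across the treatments, members lay above the controls in the mean of 6 arrays in 22 of 26 with NiNO3 EC20, 18 with Ni-NPs EC20 and 19 with Ni-NPs EC50. The median differences were 0.58, 0.28 and 0.35, and those of the control-off probes 0.24, -0.11 and 0.00. A difference over 1 was seen in 6, 5 and 5 members, against 3.13%, 1.19% and 2.17% of the control-off probes. At day 3, 19, 18 and 17 members lay above the mean of the same-day controls. The shares of control-off probes were 80.6%, 40.9% and 71.5%. At day 7 the counts were 20, 17 and 21, against 40.9%, 37.9% and 33.4%. The day 3 counts with NiNO3 EC20 and Ni-NPs EC50 thus say little about the members. These comparisons share the controls with the selection, which required low controls, and the control-off probes are dimmer than the members, so the counts carry no test.

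For each treatment and day it was counted how many members had all 3 arrays above the 3 same-day controls. With NiNO3 EC20 at day 3 these were 11 of 26 (42.3%), while 38.3% of the control-off probes did the same, so that this count says little about the members. The 3 NiNO3 EC20 arrays of day 3 had lowest detected signals of 3.36 to 3.92 on the normalized log2 scale, against 2.57 to 3.28 on the same-day controls, and the part of this in the count was not tested. With NiNO3 EC20 at day 7 the count was 7 (26.9%) against 1.92% of the control-off probes.

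With Ni-NPs EC20 it was 8 (30.8%) against 2.91% at day 3 and 4 (15.4%) against 1.74% at day 7. With Ni-NPs EC50 it was 6 (23.1%) against 8.68% at day 3 and 6 (23.1%) against 2.39% at day 7. For NiNO3 EC50, whose arrays made the selection, it was 10 against 2.15% at day 3 and 15 against 3.05% at day 7, from which nothing is read.

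Detection on the 18 arrays outside the selection was counted next. All 26 members were detected on at least 1 of the 18, with 2 to 16 arrays per member and a median of 8. Among the control-off probes, 29.2% were detected on Ni-NPs EC20 day 3 replicate 3 alone, so no fewer were detected on at least 1 of the 18. In all 198 of 468 member spots (42.3%) were detected, against 6.91% of the spots of control-off probes. These are not matched on level: the median control level was 2.58 for the members and 1.39 for the control-off probes. The members' median was reached by 2.12% of the control-off probes, and the part of the level in these shares was not tested. By treatment the detected spots were 59 of 156 (37.8%) with NiNO3 EC20, 75 (48.1%) with Ni-NPs EC20 and 64 (41%) with Ni-NPs EC50. The shares of control-off spots were 4.24%, 10.3% and 6.2%, in the same rank order, so the counts do not rank the treatments by an effect on the members. NiNO3 EC50, which made the selection, had 136, with 8.58% of control-off spots. Most often detected were contig08194 (16 arrays), contig03810 (12) and contig15046 (10, as also in 4 further members of lower mean level).

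Detection on all 3 arrays of a condition was counted as well. The control-off probes include the members, so that each share given here counts them too. With NiNO3 EC20 at day 3 such detection was reached by contig08194 and contig07484, the only 2 of the 11134 control-off probes to do so (0.018%). At day 7 it was reached by 3 members (contig08194, contig14799 and GYUW2K401CNEWI) among 9 control-off probes (0.0808%). At day 3 the only such member with Ni-NPs EC20 (19 control-off probes, 0.171%) and with Ni-NPs EC50 (2 control-off probes, 0.018%) was contig08194. At day 7 Ni-NPs EC20 had 1 such member, contig26119, among 14 control-off probes (0.126%). Ni-NPs EC50 had 10 of 26 (38.5%), among 51 control-off probes (0.458%).

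The number of members detected changed between replicates of a condition. NiNO3 EC20 detected 5, 8 and 8 at day 3 and 12, 9 and 17 at day 7. Ni-NPs EC20 detected 11, 9 and 22 at day 3 and 9, 16 and 8 at day 7, and Ni-NPs EC50 4, 9 and 1 at day 3 and 11, 21 and 18 at day 7. The highest of these, 22, was on the Ni-NPs EC20 array that also had the most probes detected of all (33391), where 29.2% of the control-off probes were detected. The lowest, 1, was on the Ni-NPs EC50 array with the fewest (19662), where 2.52% were. For Ni-NPs EC50 all 3 counts of day 7 were above those of day 3, and the shares of control-off probes were 4.05%, 12.3% and 10.1% against 2.83%, 5.33% and 2.52%, which overlap through replicate 1 of day 7. The part of the array in these counts was not tested.

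At like detection of the other probes the NiNO3 EC50 arrays held more members, as chosen. Replicate 2 at day 3 and replicate 1 at day 7 detected 5.33% of the control-off probes and 22 and 20 members, while replicate 2 of Ni-NPs EC50 at day 3 also detected 5.33% and 9 members.

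**Figure D4:**
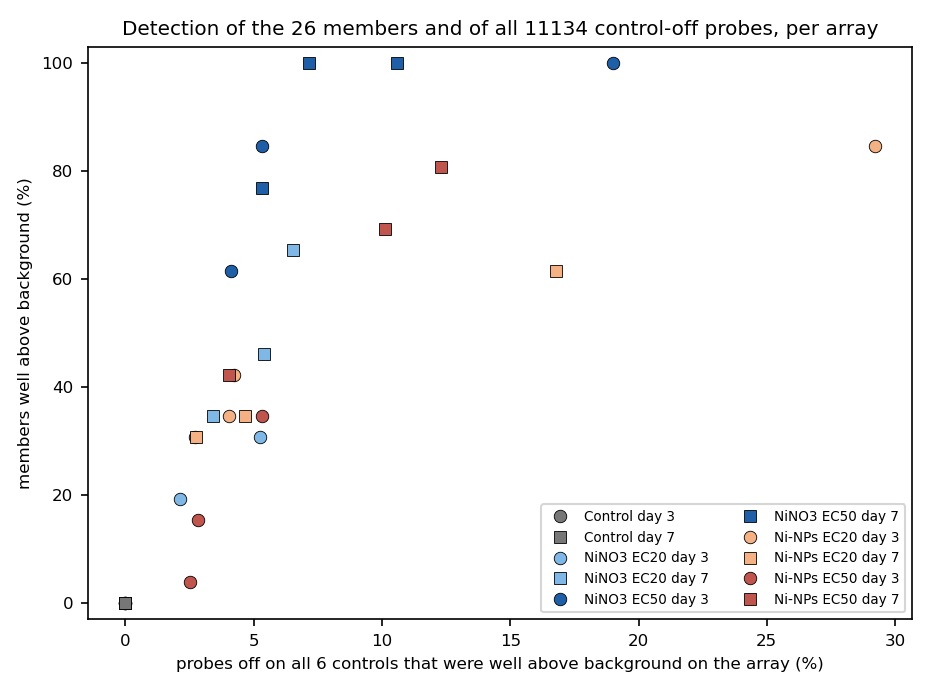
Share of the 26 members well above background on each array (vertical axis, %) against the share of the 11134 control-off probes well above background there (horizontal axis, %); points are the 30 arrays, coloured by treatment and shaped by day. The controls are at 0 in both by selection, the NiNO3 EC50 arrays lie between 61.5% and 100% of members, and the other treated arrays range from 3.85% to 84.6%, with the higher shares mostly where more control-off probes were detected.

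Slides and scan days hold several conditions, which allows comparisons within them. In all, 3 pairs of a NiNO3 EC50 and a control array shared a slide, and 25 of 26 members were higher on the NiNO3 EC50 array in each pair, with median differences of 1.15 and 0.78 on slide 4 and 1.03 on slide 8. Both pairs of slide 4 use the same control, replicate 2 of day 7, and the first of them sets a day 3 array against it. On slide 8, where the control detected more probes than any other control, contig08194 was at 5.29 with NiNO3 EC50 and 1.74 in the control. Over the 5 NiNO3 EC50 and 5 control arrays of the first scan day, 25 of 26 members were higher with NiNO3 EC50, with a median difference of 0.91. These are the same arrays that made the selection and are no separate support for it.

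Tests compared only the 18 arrays that the selection did not use, with limma and a spread estimated from all 30 arrays, on all 43750 probes and with Benjamini-Hochberg adjustment over all of them at 0.05. The first question was whether nanoparticles and salt at the same effect level, EC20, differed. No member passed in this comparison, where 0.0366% of all probes passed, 8 higher and 8 lower with Ni-NPs. The smallest adjusted p among the members was 0.245 in limma. At an unadjusted p under 0.05 there were 4 members, all lower with Ni-NPs (3 by the methods' t-test, which called none after adjustment), against 10.2% of all probes.

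These 4 were contig17143, contig08194, contig14799 and contig03810. For contig17143 the difference of Ni-NPs EC20 from NiNO3 EC20 was -1.42 ± 0.38 (SE, adjusted p = 0.245 in limma, mean of both days), and for contig08194 it was -1.61 ± 0.51 (adjusted p = 0.348). For contig14799 it was -1.55 ± 0.45 (adjusted p = 0.281) and for contig03810 -1.07 ± 0.35 (adjusted p = 0.357). Over the 26 members 9 were higher and 17 lower, with a median of -0.18, against a median of -0.07 over all probes. The control-off probes, relative to the controls, had medians of 0.24 with NiNO3 EC20 and -0.11 with Ni-NPs EC20. Against same-day controls these medians were 0.52 and -0.13 at day 3, and -0.11 and -0.19 at day 7. Dim probes in general thus shared the direction, mostly through day 3, and the direction alone is not particular to the members. The part of this shift in the differences of the 4 members was not tested. The values of contig08194 depended on 1 array: without Ni-NPs EC20 day 7 replicate 2, which held the level of 0.41, its difference was -1.0. On the arrays of the first scan day alone, where Ni-NPs EC20 has a single array at each day and no test is read, the differences were -0.34 for contig08194, -0.30 for contig14799, -0.71 for contig03810 and -2.0 for contig17143.

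In contig14799 the NiNO3 EC20 arrays stood at 3.93, 4.08 and 3.76 at day 3 and 5.03, 3.81 and 4.29 at day 7, above NiNO3 EC50 in the mean (4.15 against 3.40). Ni-NPs EC20 gave 3.76, 2.95 and 1.71 at day 3 and 3.98, 2.44 and 0.76 at day 7. Only replicate 1 of Ni-NPs EC20 reached the levels of NiNO3 EC20, at both days. At each day it was also the only Ni-NPs EC20 array of the first scan day. Of the NiNO3 EC20 arrays, only replicate 3 of day 7 was scanned later. Nickel form and scan day thus overlapped in this comparison and cannot be fully told apart.

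The second question was whether the higher particle concentration differed from the lower. Scan days were uneven here too: of the Ni-NPs EC50 arrays, only replicate 3 of day 7 was scanned after the first scan day. No member and none of the 43750 probes passed (0%), while 2861 probes (6.54%) and 3 members had an unadjusted p under 0.05 in limma, and the methods' t-test also called none. The 3 members were contig17143, higher at EC50 by 1.08 ± 0.38 (SE, adjusted p = 0.687), contig03810, higher by 0.86 ± 0.35 (adjusted p = 0.721), and contig20798, at -0.79 ± 0.35 (adjusted p = 0.743). Of all members 12 were higher and 14 lower at EC50, with a median of -0.06. The largest difference, 1.47, was that of contig07484, and it rests on the levels of 6.77 and 6.98 on single arrays of each day.

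**Figure D5:**
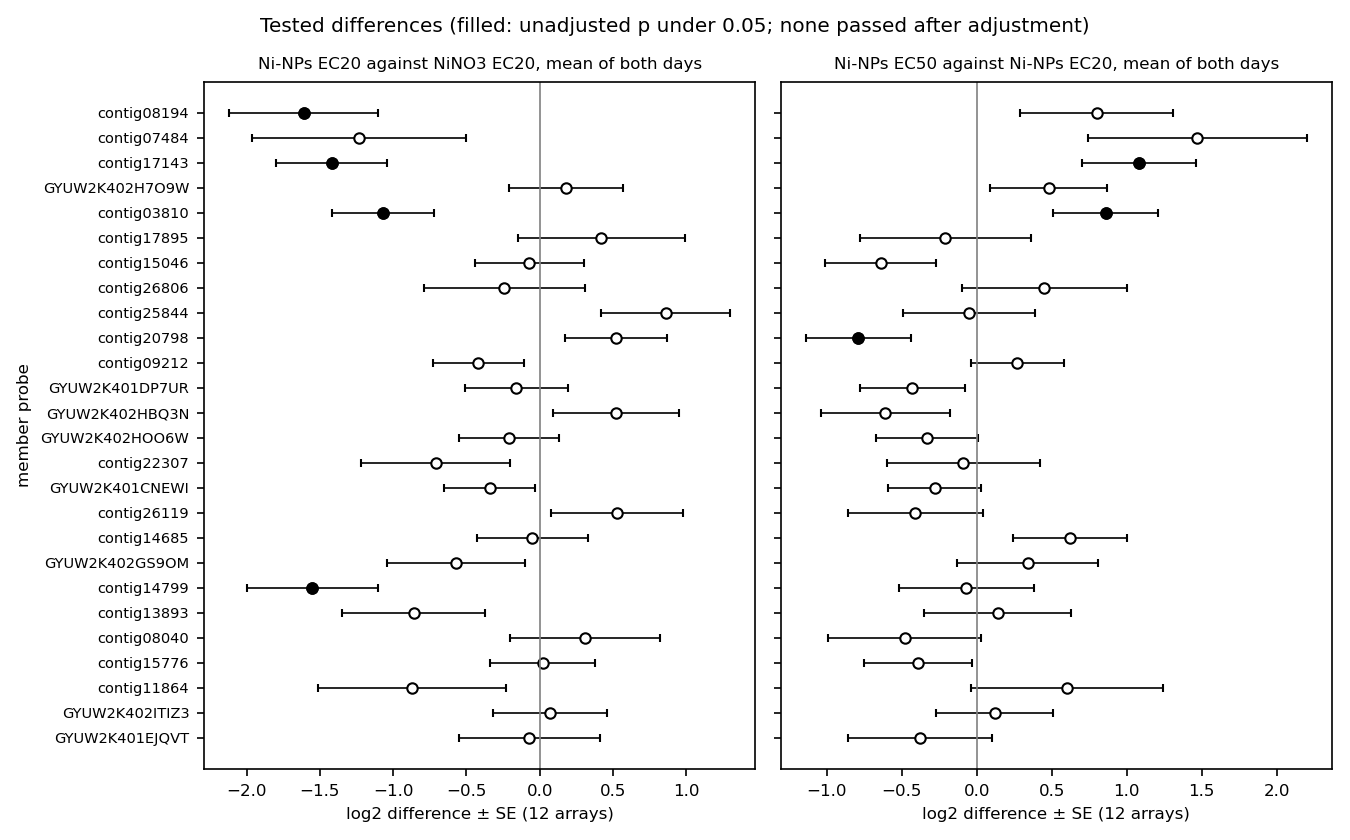
Log2 difference ± SE of the 26 members in 2 tested comparisons, Ni-NPs EC20 against NiNO3 EC20 (left) and Ni-NPs EC50 against Ni-NPs EC20 (right), with 6 arrays on each side and the spread estimated from all 30; filled points have an unadjusted p under 0.05. No member passed after adjustment, and the lowest points on the left are contig08194 at -1.61 and contig14799 at -1.55.

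Between day 3 and day 7 the particle arrays differed in many probes, with 3.58% of all probes past the threshold, 537 higher and 1031 lower at day 7. None of the members passed, and 3 of 26 had an unadjusted p under 0.05 in limma, against 21.4% of all probes. Their differences were -1.37 ± 0.51 for contig08194 (SE, adjusted p = 0.123 in limma), -1.16 ± 0.45 for contig14799 (adjusted p = 0.138) and 0.74 ± 0.31 for GYUW2K401CNEWI (adjusted p = 0.165). Without Ni-NPs EC20 day 7 replicate 1, where contig08194 was at 5.05 and contig14799 at 3.98, both fell at day 7, by 1.93 (adjusted p = 0.0136 in limma) and by 1.56 (adjusted p = 0.0284). This omission removes the highest level of both probes in that condition and keeps their lowest, 0.41 and 0.76. Over the 12 omissions of 1 array, 0 to 2 members were called, so these 2 calls rest on the array left out. The median over the members was -0.05 and over all probes -0.09.

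With NiNO3 EC20, 0.137% of all probes passed between the days, 11 higher and 49 lower at day 7, and none of the members. Of the 4 members with an unadjusted p under 0.05 in limma (the methods' t-test gave 0), 3 were higher at day 7 and 1 lower, and 11.5% of all probes were under this p. Of the latter, contig13893, the levels were 3.32, 5.44 and 3.63 at day 3 and 2.95, 2.64 and 1.28 at day 7 (difference -1.84 ± 0.69, adjusted p = 0.323). Of the former, GYUW2K401CNEWI had 3.20, 1.70 and 3.76 at day 3 and 4.24, 4.01 and 4.26 at day 7 (difference 1.29 ± 0.43, adjusted p = 0.284). The same probe had 1.60, 2.44 and 2.08 with Ni-NPs EC50 at day 3 and 3.91, 3.54 and 3.90 at day 7, with no overlap of the days in either condition.

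Whether the comparisons changed with the day was tested as an interaction. In both interactions, of the concentration difference of the particles and of the difference between particles and salt at EC20, no member and no probe passed in limma (0% each), and the methods' t-test called no probe. An unadjusted p under 0.05 was found in limma for 2686 probes and 3 members in the first and for 2175 probes and 1 member in the second. The member with the smallest unadjusted p in the first, and the only one in the second, was GYUW2K401CNEWI, with differences of 2.01 ± 0.62 (SE, adjusted p = 0.763) and -1.55 ± 0.62 (adjusted p = 0.885). An adjusted p above the threshold does not show that levels were equal: in simulated data with this design, 49% of genes changed by 1.5 and 95% of those changed by 3 on the log2 scale were called in the comparison of the particle concentrations. The changed genes were drawn from all probes and not from the dim members, and interactions were not simulated. Their SE is larger: for GYUW2K401CNEWI it was 0.62 in the first interaction and 0.31 in the comparison of the particle concentrations.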

How the data were processed

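Whole-worm RNA was labelled with 1 dye and hybridized to 30 arrays. The authors read the spots with Agilent Feature Extraction 10.7.3.1 (protocol GE1_107_Sep09), and the deposited processed signal is an intensity on a linear scale, corrected for background and not normalized between arrays; flags for significance and detection stand beside it. A deposited summary table of intensity values, with a largest log2 difference of 0.00719 from the scanner values, was used as an alternative. Genome builds are not given in the sources used here.

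The members were selected from the flags of the 43750 non-control probes. Levels are log2 processed signals after Median normalization on the 24653 probes significant on all arrays. Differences were tested with limma 3.58.1 in R 4.3.3, with 1 mean per condition over all 30 arrays, and Benjamini-Hochberg adjustment. Controls and NiNO3 EC50 arrays made the selection and were not tested. Folds called "at least" are the difference between the mean of the brighter group and the mean, over the arrays of the dimmer group, of the lowest detected signal or the probe's own if higher. They hold under this setting only, because the lowest detected signal is that of any probe on the array and a spot's own limit can be higher. For arrays, their number (3 per condition) limits the precision.

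The members, the lists and the settings were chosen with earlier results of these data known. Probes were named by rule: the 10 largest differences between NiNO3 EC50 and control, up to 3 called members per tested comparison and direction (none), the 5 highest on Ni-NPs EC50, and the 3 most and 3 least often detected on the 18 other arrays, with ties by mean signal; others named were chosen after their values were seen. An intended list of members with stress annotations held none, because the files hold no annotation. No sample column was left out (0). Replicate numbers were not taken as pairs: the correlation of deviations of same-numbered arrays was over 0.1 in 7 of 18, 7 of 18, 2 of 3 and 11 of 18 pairs in the 4 comparisons. The fit was tested on simulated data with 43750 genes and 100 changed per size. Alternatives were other normalizations, filters, fits and flags, blocks by replicate number, slide and scan day, and leaving out each array.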

Additional observations from a re-analysis of the deposited data

How the results depend on the processing

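The number of members depended on the rule. It was 6 with detection required on all 6 NiNO3 EC50 arrays, 97 with 4 of 6, 32 with probes significant on all arrays allowed and 18 with the significance flag in place of detection. When 1 of the 12 arrays was left out, 28 to 79 probes were selected, all 26 members among them each time. The highest were 79 without NiNO3 EC50 day 3 replicate 1, 63 without Control day 3 replicate 3, 62 without NiNO3 EC50 day 3 replicate 2, 52 without Control day 7 replicate 2, 50 without NiNO3 EC50 day 7 replicate 1 and 45 without NiNO3 EC50 day 7 replicate 3. Each omission removes a condition, and leaving out a NiNO3 EC50 array also lowered the number of detections required by 1. Keeping all 26 was thus fixed in advance and does not show that the list is stable. On the 18 other arrays, the share of member spots detected was 42.3%, 54.6% for the 6 members detected on all NiNO3 EC50 arrays, 90% by the significance flag, and 39.8% to 44.6% when 1 array was left out, an alternative chosen after seeing the data.

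The count of members called stayed at 0 in the 6 comparisons under the 16 settings that change the normalization, filter, fit or block, the replicate block (smallest adjusted p 0.0743) included, and when 1 array was left out, except that 0 to 2 were called between day 7 and day 3 of the particles. Because normexp could not be run on the mean signal, it was run on the median signal, chosen after seeing the data, as was the restriction to the first scan day. Under normexp the difference of contig08194 between NiNO3 EC50 and control was 0.67 and none of the members exceeded 1 (17 did without normalization and 19 with spike-in scaling, against 11), as its offset of 50 is above most member signals. Under the other scalings all 26 members stayed above the controls, with a median of 0.86 to 1.26. Faint signals near the detection limit bound what can be said of most members.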

Other observations

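The same selection was made with other treatments in place of NiNO3 EC50. It held 2 probes for NiNO3 EC20, both among the 26, 6 for Ni-NPs EC20, of which 1 was among the 26, and 3 for Ni-NPs EC50, of which 2 were. In the opposite direction, 3 probes were off on all 6 NiNO3 EC50 arrays and detected on at least 5 of the 6 controls. The arrays of the treatments detected different numbers of probes, and the part of this in the counts was not tested.

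In NiNO3 EC50 the members had no shared order of the days: 16 of 26 were higher at day 7 than at day 3, by -1.18 to 1.90 with a median of 0.06, and contig17143 and contig14685 stood at the ends. Against Ni-NPs EC50, the NiNO3 EC50 mean was higher in 25 members, and contig25844, at 3.62 with Ni-NPs EC50 and 3.35 with NiNO3 EC50, was the exception. The selection required detection with NiNO3 EC50, so these are descriptions.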
